A study of Mus musculus with 12 samples.

Results

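The genes described here encode the subunits of the 5 complexes of mitochondrial oxidative phosphorylation. They were picked by symbol: the nuclear families of complex I (Ndufa, Ndufb, Ndufc, Ndufs and Ndufv), the 4 subunits of succinate dehydrogenase (Sdha to Sdhd), the Uqcr genes and Cyc1 of complex III, Cox4 to Cox8 of complex IV, Atp5 of ATP synthase, and the protein-coding genes of mitochondrial DNA. Of 56980 rows of the count table, 21922 were protein-coding and 100 of these carried such a symbol. A minimum of 10 counts in at least 3 of the 12 libraries left 96 members, of which 84 are nuclear and 12 are mitochondrially encoded. The nuclear ones divide into 7 core and 31 accessory genes of complex I, 4 of complex II, 9 of complex III, 16 of complex IV and 17 of complex V. The 4 that failed were Cox8b and mt-Atp8, which reached at most 12 counts in any library, and Cox8c and a second identifier of Atp5o, which had 0 counts. All 96 members passed the filter of the test, so no member was lost there.

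Bulk RNA sequencing was done on hippocampus from 12 male mice, with 1 library per mouse identifier and 4 groups of 3. The groups were App NL-G-F knock-in mice with Trem2 knockout (Trem2-KO) at 9 months, App NL-G-F knock-in mice (App-KI) at 9 months, Trem2-KO mice at 3 months and App-KI mice at 3 months. Every mouse carried the App knock-in, in which the mouse's own App gene is changed so that amyloid builds up without overexpression of its precursor, and no mouse without it is compared here, so age and amyloid load cannot be told apart. The series was designed to follow pathways through the onset and the middle stage of amyloid pathology and to ask how loss of Trem2, a receptor of microglia, alters glial responses. Which part of Trem2 was deleted is not given in the sources used here.

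Oxidative phosphorylation passes electrons from NADH and succinate through complexes I to IV to oxygen and uses the resulting proton gradient to make ATP at complex V. Neurons depend on it heavily for synaptic transmission and ion pumping. Its subunits come from both genomes: the mitochondrial genome is transcribed as long precursors that are cut into single messenger and ribosomal RNAs, while all other subunits, including the whole of complex II, are transcribed in the nucleus and imported as proteins.

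Total counts ran from 14627892 to 24594655 per library. A count of 3, the limit that a count of 0 allows, equalled 0.122 to 0.206 CPM (counts scaled to 1000000 per library after TMM, edgeR's trimmed mean of M-values), which covers counting error only. Trem2 stood at 3.74 ± 0.110 CPM in Trem2-KO and 52.7 ± 2.90 CPM in App-KI mice at 9 months, and at 1.98 ± 0.165 CPM in Trem2-KO and 9.19 ± 1.15 CPM in App-KI mice at 3 months (SD, n = 3 each). Markers of hippocampal neurons, 11 genes, summed to 1939 to 2199 CPM in Trem2-KO and 2056 to 2253 CPM in App-KI mice at 9 months, and to 2165 to 2216 CPM in Trem2-KO and 2188 to 2326 CPM in App-KI mice at 3 months. Libraries differed in neighbouring tissue: the 17 choroid plexus and ependymal markers summed to 391 to 8120 CPM in Trem2-KO and 358 to 3840 CPM in App-KI mice at 9 months, and to 1965 to 3488 CPM in Trem2-KO and 395 to 4412 CPM in App-KI mice at 3 months. Markers of meningeal and perivascular fibroblasts, 12 genes, summed to 419 to 564 CPM in the 9-month Trem2-KO libraries and to 217 to 304 CPM in the 9 others.

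With age, transcripts of the nuclear subunits were lower in both genotypes, while among the mitochondrially encoded ones some were lower and others were not. In Trem2-KO mice 22 of the 84 nuclear members fell between 3 and 9 months, 1 rose and 61 passed no test, with a median log2 fold change of -0.29. In App-KI mice 26 fell, none rose and 58 did not pass, with a median of -0.25. Over all 19152 tested genes the medians were 0.0023 in Trem2-KO and -0.0011 in App-KI mice. In such bulk samples, fewer cells of a type and less RNA per cell cannot be told apart. Calls were made by edgeR's quasi-likelihood test at a Benjamini-Hochberg adjusted p under 0.05. Over all genes tested, 3.02% were called lower and 5.68% higher at 9 months in Trem2-KO mice, and 2.71% lower and 3.95% higher in App-KI mice. Among all 96 members the calls were 24 lower and 1 higher in Trem2-KO mice and 30 lower and 0 higher in App-KI mice. At an unadjusted p under 0.05, 62 members were lower and 1 higher in Trem2-KO mice, and 51 lower and 0 higher in App-KI mice. Of all genes, 9.92% were lower and 12.7% higher at that threshold in Trem2-KO mice, and 8.36% lower and 8.72% higher in App-KI mice. DESeq2 called 44 members in Trem2-KO and 39 in App-KI mice. Every 9-month library lay below every 3-month library for 40 members in Trem2-KO mice, against 11.9% of all genes, and for 57 in App-KI mice, against 11.5%.

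The age comparisons of the 2 genotypes share no library, but both came from 1 fit with 1 estimate of the spread. Their call lists are therefore not independent. Without the 9-month App-KI replicate 1, for example, 5 of the 25 Trem2-KO age calls were lost. Of the 24 members called lower in Trem2-KO mice and the 30 called lower in App-KI mice, 15 were on both lists, which is 62.5% of the Trem2-KO list and 50% of the App-KI list. They were Ndufs8, Ndufa11, Ndufb3, Ndufb6 and Ndufb7 of complex I, Sdhb of complex II, Uqcrb and Uqcrfs1 of complex III, Cox5a of complex IV, Atp5c1, Atp5d, Atp5g2 and Atp5j of complex V, and mt-Nd1 and mt-Nd2. The log2 fold change was negative in both genotypes for 79 of the 96 members and positive in both for 6. Neither the overlap of the lists nor this agreement in sign was counted over all genes. Whether either is particular to the members was therefore not tested. A test of whether the age change differed between the genotypes, the interaction term, called none of the 96, with 1 higher and 1 lower at an unadjusted p under 0.05 and 0 called by DESeq2; over all genes 0.0574% were called higher and 0.209% lower, and 3.35% and 2.68% had an unadjusted p under 0.05.

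The number of calls depended on single libraries. In Trem2-KO mice 51 members were called without the 9-month replicate 1, but 8 without the 9-month replicate 2, 9 without the 3-month replicate 2 and 8 without the 3-month replicate 3. The 9-month Trem2-KO replicate 1 was the highest of its group for 56 of the 84 nuclear members and replicate 2 the lowest for 59, and both had high choroid plexus sums (8120 and 7958 CPM). In App-KI mice 16 members were called without the 9-month replicate 1 or without the 9-month replicate 2, 19 without the 3-month replicate 1 and 18 without the 3-month replicate 3. With the fibroblast score of each library as a covariate, no member was called in Trem2-KO mice while the nuclear median was -0.39. Without the 3 libraries lowest in choroid plexus markers, 10 were called in App-KI mice. Leaving out any 1 of the 12 libraries ended none of the calls of Ndufb6, Uqcrb, Cox5a, Atp5d and mt-Nd1 in either genotype. The other calls that no single left-out library ended were Cox7b in Trem2-KO mice and Ndufab1, Ndufb3, Ndufv2, Sdhb, Uqcrfs1, Atp5f1 and mt-Nd2 in App-KI mice.

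**Figure D1:**
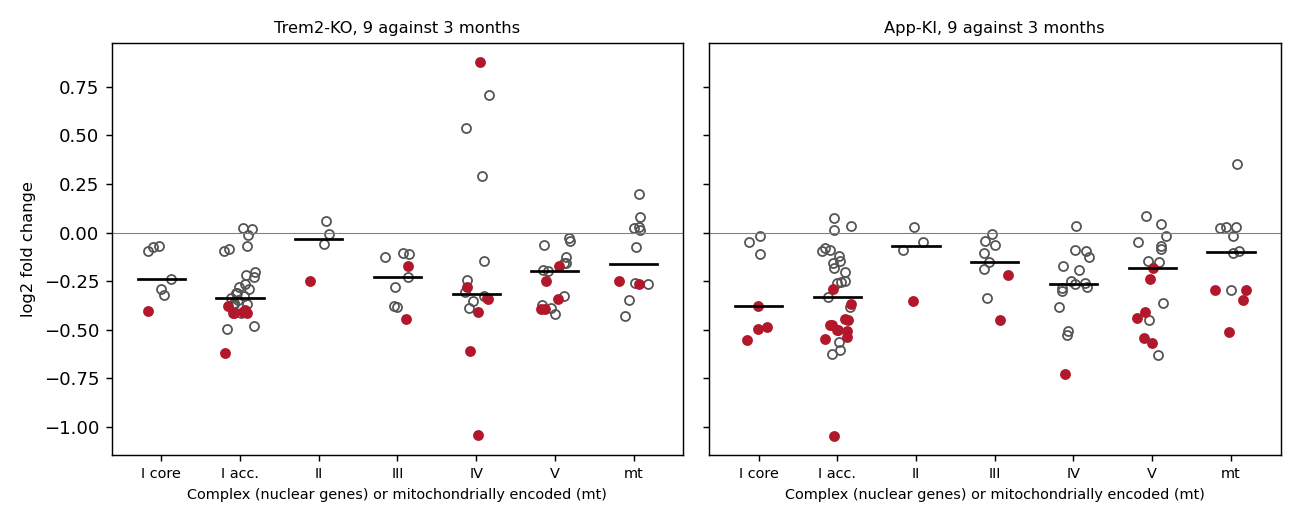
Log2 fold change at 9 against 3 months for each of the 96 members (circles), by complex for nuclear genes and together for mitochondrially encoded ones (mt), in Trem2-KO (left) and App-KI mice (right); filled circles passed edgeR's test and bars are medians. Most circles lie below 0 in every complex, with complex II nearest to 0 (median -0.032 in Trem2-KO and -0.070 in App-KI mice).

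The core subunits of complex I, which carry its flavin, iron-sulfur clusters and quinone site, split by gene. Ndufs8, an iron-sulfur subunit of the arm leading to quinone, had 66.3, 46.4 and 48.6 CPM in Trem2-KO mice at 9 months, against 73.0, 67.5 and 73.5 CPM at 3 months (log2 fold change -0.40 ± 0.11, adjusted p = 0.046 by edgeR). In App-KI mice it had 49.3, 45.4 and 55.1 CPM at 9 months, against 69.8, 72.4 and 68.6 CPM at 3 months (-0.49 ± 0.11, adjusted p = 0.0209). The ages did not overlap in either genotype, but replicate 1 of the 9-month Trem2-KO libraries lay close to the 3-month values. Ndufs3, Ndufs7 and Ndufv2 passed the test in App-KI mice alone, with log2 fold changes of -0.24, -0.32 and -0.29 in Trem2-KO and -0.38, -0.55 and -0.49 in App-KI mice. Ndufv1, the NADH-oxidising flavoprotein, passed no test and stood at -0.069 in Trem2-KO and -0.018 in App-KI mice. Ndufs1, the largest iron-sulfur subunit, also passed no test, at -0.093 in Trem2-KO and -0.11 in App-KI mice.

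Accessory subunits surround that core and stabilise its arms. Of 31, 7 fell in Trem2-KO and 12 in App-KI mice, none rose, and 29 and 28 had negative values (medians -0.34 and -0.33). Ndufb6, a small membrane-arm subunit, had 21.7, 15.7 and 17.3 CPM at 9 months and 25.5, 27.5 and 31.1 CPM at 3 months in Trem2-KO mice (-0.62 ± 0.11, adjusted p = 0.00117 by edgeR). The App-KI libraries had 19.2, 16.9 and 19.4 CPM at 9 months and 24.8, 26.1 and 28.0 CPM at 3 months (-0.51 ± 0.11, adjusted p = 0.0057). All 9-month libraries were below all 3-month libraries. Ndufb3 (-0.41 in Trem2-KO and -0.45 in App-KI mice), Ndufb7 (-0.42 and -0.47) and Ndufa11 (-0.38 and -0.50), all of the membrane arm, fell in both genotypes. Calls in Trem2-KO mice alone were Ndufa5 (-0.42, against -0.16 in App-KI mice, not called), Ndufc1 (-0.40, against -0.088) and Ndufs6 (-0.42, against -0.15). Calls in App-KI mice alone were Ndufab1, the mitochondrial acyl carrier protein, Ndufs4, whose loss in mice gives a model of Leigh syndrome, Ndufa6, Ndufa8, Ndufb5, Ndufb8, Ndufb11 and Ndufa4l2. They spanned -1.05 (Ndufa4l2) to -0.29 (Ndufa6) in App-KI mice and were -0.23 (Ndufa4l2), -0.34 (Ndufs4) and -0.20 (Ndufab1) in Trem2-KO mice. Since no interaction was called, a call in 1 genotype alone is no measured difference between genotypes.

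Complex II, which oxidises succinate and also serves the TCA cycle, changed in 1 of its 4 subunits. Sdhb, the iron-sulfur subunit, had 168, 134 and 145 CPM in Trem2-KO mice at 9 months and 179, 175 and 178 CPM at 3 months (-0.25 ± 0.06, adjusted p = 0.0195 by edgeR). In App-KI mice its values were 123, 129 and 132 CPM at 9 months and 155, 165 and 170.1 CPM at 3 months (-0.35 ± 0.06, adjusted p = 0.00147). Both ages stood clear of each other, by a wider margin in App-KI mice. Sdha, the flavoprotein that binds succinate, had 676, 676 and 685 CPM at 9 months and 639, 652 and 663 CPM at 3 months in Trem2-KO mice (0.061 ± 0.04, adjusted p = 0.435), and 649, 648 and 653 CPM at 9 months and 626, 647 and 641 CPM at 3 months in App-KI mice (0.027 ± 0.04, adjusted p = 0.835 by edgeR). Its 9-month libraries all lay above the 3-month ones of the same genotype, but the difference passed no test. The membrane anchors Sdhc (-0.0051 in Trem2-KO and -0.051 in App-KI mice) and Sdhd (-0.058 and -0.089) passed no test.

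In complex III, 2 of 9 nuclear members fell in each genotype, the same pair, and all 9 had negative values in both. Uqcrfs1, the Rieske iron-sulfur protein, had 142, 144 and 132 CPM at 9 months and 155, 157 and 159 CPM at 3 months in Trem2-KO mice (-0.17 ± 0.05, adjusted p = 0.0245 by edgeR). App-KI mice had 128, 127 and 129 CPM at 9 months and 146, 147 and 154 CPM at 3 months (-0.22 ± 0.05, adjusted p = 0.00491). Uqcrb, a small subunit near the quinone site, had 43.4, 34.3 and 39.6 CPM at 9 months and 48.7, 55.1 and 55.9 CPM at 3 months in Trem2-KO mice (-0.45 ± 0.09, adjusted p = 0.00346), and 39.8, 38.8 and 42.0 CPM at 9 months and 61.7, 52.4 and 50.4 CPM at 3 months in App-KI mice (-0.45 ± 0.09, adjusted p = 0.00299). For both genes the ages were separate in each genotype. Cyc1, the haem-bearing electron carrier, stood at -0.11 in Trem2-KO and -0.11 in App-KI mice, and the core proteins Uqcrc1 (-0.11 and -0.15) and Uqcrc2 (-0.12 and -0.043) also passed no test.

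Nuclear subunits of complex IV surround a catalytic core that is mitochondrially encoded. Of the 16, 6 fell and 1 rose in Trem2-KO mice, and 1 fell in App-KI mice. Cox5a had 59.2, 38.0 and 45.2 CPM at 9 months and 72.4, 69.8 and 75.8 CPM at 3 months in Trem2-KO mice (-0.61 ± 0.12, adjusted p = 0.00713 by edgeR). In App-KI mice it had 41.9, 43.3 and 45.5 CPM at 9 months and 74.1, 70.4 and 71.6 CPM at 3 months (-0.73 ± 0.12, adjusted p = 0.00233). No 9-month library reached the lowest 3-month value. Further falls in Trem2-KO mice were Cox5b (-0.34, against -0.27 in App-KI mice, not called), Cox6c (-0.28, against -0.095), Cox7b (-0.41, against -0.26), Cox8a (-0.34, against -0.17) and the scarce Cox6a2. Cox4i1, an abundant subunit that binds ATP as a regulator, had 312, 186 and 215 CPM at 9 months and 296, 279.7 and 306 CPM at 3 months in Trem2-KO mice, so that replicate 1 was above every 3-month library and the other 2 far below them (-0.31 ± 0.16, adjusted p = 0.318). In App-KI mice it had 207, 197 and 221 CPM at 9 months and 308, 309 and 283 CPM at 3 months, with no overlap, yet did not pass the test either (-0.53 ± 0.16, adjusted p = 0.116).

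ATP synthase joins a catalytic head to a membrane rotor through a central and an outer stalk. Of its 17 nuclear members, 5 fell in Trem2-KO and 6 in App-KI mice. Atp5d, of the central stalk, had 151, 119.9 and 124 CPM at 9 months and 160.1, 163 and 178 CPM at 3 months in Trem2-KO mice (-0.34 ± 0.07, adjusted p = 0.00505 by edgeR), and 119.7, 113 and 119 CPM at 9 months and 154, 162 and 160.2 CPM at 3 months in App-KI mice (-0.44 ± 0.07, adjusted p = 0.000516). Its ages did not overlap in either genotype. Atp5c1, the rotating gamma subunit, fell by less (-0.17 in Trem2-KO and -0.18 in App-KI mice). Atp5g2, 1 of 3 genes for the rotor ring subunit, had -0.39 and -0.54, and Atp5j, of the outer stalk, had -0.39 and -0.41. Atp5j2 passed in Trem2-KO mice alone (-0.25, against -0.15 in App-KI mice), and Atp5f1 and Atp5o, both of the outer stalk, in App-KI mice alone (-0.24 and -0.57, against -0.15 and -0.42 in Trem2-KO mice). Neither Atp5b nor Atp5a1 of the catalytic head was called. Atp5b, the beta subunit, had 1728, 1796 and 1720.3 CPM at 9 months and 1708, 1812 and 1829 CPM at 3 months in Trem2-KO mice (-0.029 ± 0.05, adjusted p = 0.788 by edgeR). In App-KI mice it had 1769, 1648 and 1678 CPM at 9 months and 1656, 1729.9 and 1766 CPM at 3 months (-0.016 ± 0.05, adjusted p = 0.924 by edgeR). Its ages overlapped in both genotypes. Atp5a1, the alpha subunit, stood at -0.064 in Trem2-KO and -0.072 in App-KI mice. Its ages overlapped in Trem2-KO mice. In App-KI mice they did not, with 912.2, 882.0 and 887.0 CPM at 9 months and 920.4, 941.2 and 956.3 CPM at 3 months. Rows of several members share sequence with other annotated transcripts, so their counts are uncertain: 87.4% of the 50-base windows of Atp5g2, 50.3% of Atp5o, 43.4% of Uqcrb, 34.1% of Ndufb6 and 32.0% of Cox5a occur elsewhere, against 0% for Ndufs8.

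**Figure D2:**
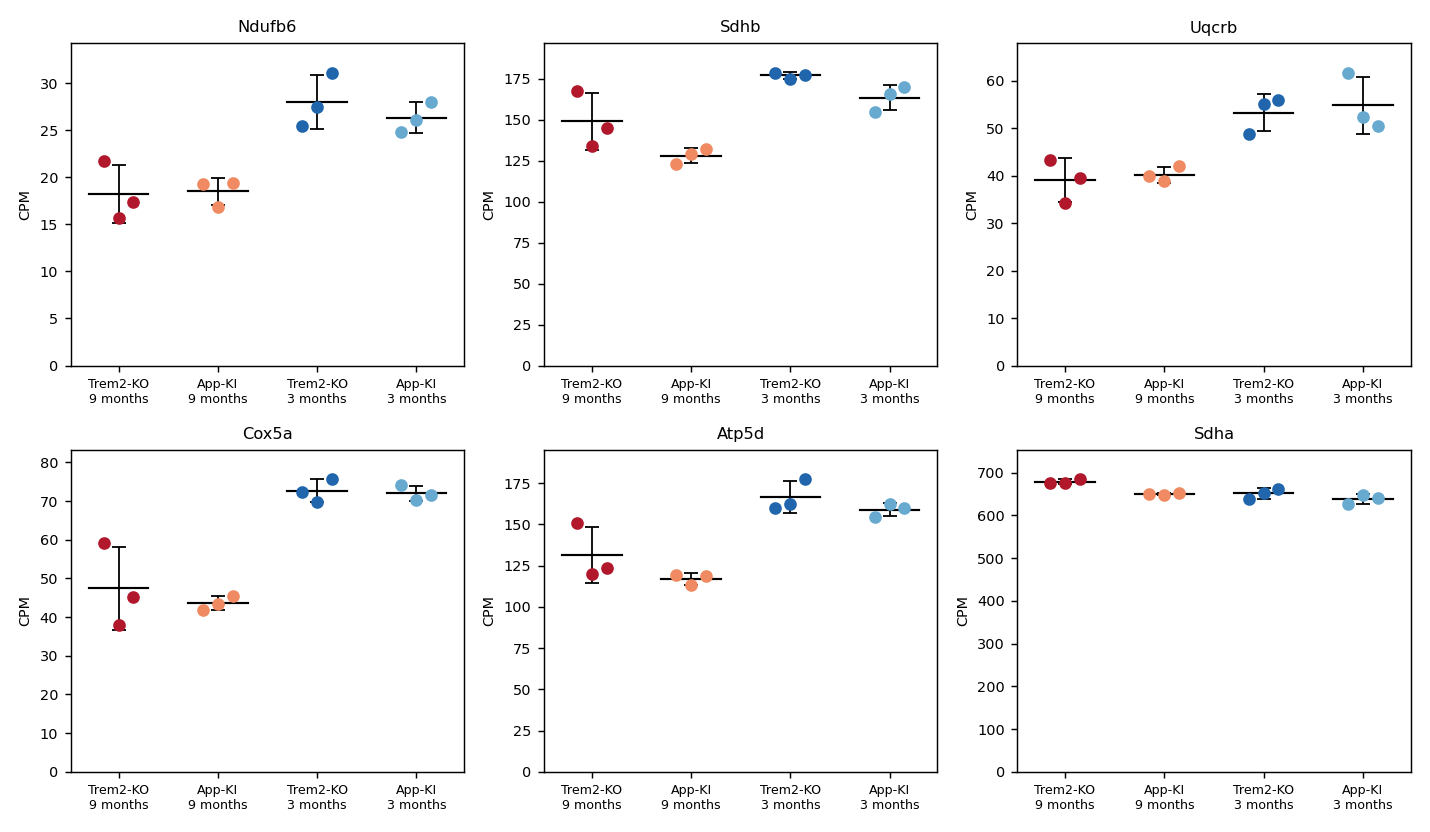
CPM of 6 nuclear members in every library (points), with group mean (bar) and SD (whisker, n = 3), for Trem2-KO and App-KI mice at 9 and at 3 months; all axes start at 0. Ndufb6, Sdhb, Uqcrb, Cox5a and Atp5d were lower in all 6 libraries at 9 months than in the 3-month libraries of the same genotype, while Sdha was not.

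Levels were compared between genes per kilobase of exon, with all annotated exons of a gene joined. As a mean over the 12 libraries, Atp5b led the nuclear members with 410 CPM per kilobase, followed by Atp5a1 with 302, Cox8a with 197, Cox4i1 with 168 and Sdha with 159 CPM per kilobase. Complex I was lower, with 99.5 CPM per kilobase for Ndufa8, 90.2 for Ndufa4 (now also placed in complex IV) and 78.6 for Ndufv1. Uqcrfs1 led complex III with 105 CPM per kilobase. The order below Atp5b and Atp5a1 depended on the length used. Per kilobase of the transcript with the longest coding sequence, Cox4i1 had 340, Atp5g3 302, Atp5c1 241, Sdha 226, Cox8a 222 and Ndufa4 204 CPM. By that length Uqcrc1, with 145 CPM, stood above Uqcrfs1 in complex III.

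Among the 12 mitochondrially encoded members, 2 fell in Trem2-KO mice and 4 in App-KI mice, none rose, and the median log2 fold changes were -0.16 and -0.10. The 7 genes with little or partial sequence sharing had mean levels of 331 to 3104 CPM, against at most 31.4 CPM for the other 5. By calls and size of change these 7 split by position along the mitochondrial genome, a pattern seen only with the other 5 set aside. Separation of the ages did not follow it fully, as mt-Nd4 shows below for App-KI mice. Of those 5, all after mt-Co1, mt-Co2 (-0.43 in Trem2-KO and -0.51 in App-KI mice), mt-Atp6 (-0.27 and -0.30) and mt-Co3 (-0.26 and -0.35) were as low as the early genes. By contrast, mt-Nd3 (-0.34 and 0.027) and mt-Nd4l (0.20 and 0.35) were not so in both genotypes. The mt-Nd1 gene, a membrane subunit of complex I and the first messenger after the ribosomal RNAs, had 1443, 1249 and 1383 CPM at 9 months and 1581, 1573 and 1689 CPM at 3 months in Trem2-KO mice (-0.25 ± 0.05, adjusted p = 0.0057 by edgeR). In App-KI mice it had 1263, 1266 and 1256 CPM at 9 months and 1499.6, 1588 and 1558 CPM at 3 months (-0.30 ± 0.05, adjusted p = 0.00112). Its neighbour mt-Nd2 had 620.3, 502 and 566 CPM at 9 months and 687, 651 and 691 CPM at 3 months in Trem2-KO mice (-0.27 ± 0.06, adjusted p = 0.0093), and 551, 574 and 589 CPM at 9 months and 675, 718 and 710.3 CPM at 3 months in App-KI mice (-0.30 ± 0.06, adjusted p = 0.004). For both genes every 9-month library was below every 3-month library of its genotype. The 2 ribosomal RNAs that precede them, which are no members, also fell by edgeR: mt-Rnr1 stood at -0.50 ± 0.09 in Trem2-KO and -0.48 ± 0.09 in App-KI mice (adjusted p = 0.00497 and 0.00589), and mt-Rnr2 at -0.27 ± 0.06 and -0.32 ± 0.06 (adjusted p = 0.00631 and 0.00115). How much sequence these ribosomal RNAs share with nuclear genes was not assessed.

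Of the downstream genes with more distinct sequence, none passed the test in either genotype, though 51.1% of the windows of mt-Co1 and 62.2% of those of mt-Nd4 also occur in nuclear copies. The catalytic subunit gene of complex IV, mt-Co1, had 3069.8, 3072 and 3266 CPM at 9 months and 2874, 2865 and 3177 CPM at 3 months in Trem2-KO mice (0.077 ± 0.06, adjusted p = 0.457 by edgeR), and 2940.4, 3426 and 3171 CPM at 9 months and 3123, 3209.9 and 3058 CPM at 3 months in App-KI mice (0.022 ± 0.06, adjusted p = 0.905). Ages overlapped in both genotypes. The cytochrome b gene of complex III, mt-Cytb, had 2495, 2474 and 2664 CPM at 9 months and 2388, 2533 and 2634 CPM at 3 months in Trem2-KO mice (0.015 ± 0.05, adjusted p = 0.908), and 2310.2, 2567 and 2425 CPM at 9 months and 2619.9, 2665 and 2559 CPM at 3 months in App-KI mice (-0.10 ± 0.05, adjusted p = 0.328). The remaining complex I genes of this group were mt-Nd4 at -0.077 in Trem2-KO and -0.10 in App-KI mice, mt-Nd5 at 0.029 and -0.02, and mt-Nd6, the 1 member on the other strand, at 0.025 and 0.026. In App-KI mice mt-Nd4 had 947.6, 997.4 and 949.3 CPM at 9 months and 1002.8, 1045.6 and 1047.3 CPM at 3 months. Its ages were thus separate there, as for mt-Nd1 and mt-Nd2, though it was not called. In Trem2-KO mice its ages overlapped. Counting by strand is not given in the sources used here, and the ends of mt-Nd6 and mt-Nd5 overlap, so reads there cannot be told apart.

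The remaining 5, mt-Co2, mt-Co3, mt-Atp6, mt-Nd3 and mt-Nd4l, carry little weight. Between 97.99% and 100% of their 50-base windows also occur in other annotated genes, with a pseudogene on chromosome 1 alone holding 97.99% to 99.86%, and their mean level was 3.38 to 42.8 CPM per kilobase, against 605 to 2210 CPM per kilobase for the other 7. Reads that map to more than 1 gene may have been counted differently there, which was not tested. In App-KI mice mt-Co2 (-0.51 ± 0.14, adjusted p = 0.0419 by edgeR) and mt-Co3 (-0.35 ± 0.10, adjusted p = 0.0424) fell, and in Trem2-KO mice they stood at -0.43 and -0.26 and were not called. The values of mt-Atp6 were -0.27 in Trem2-KO and -0.30 in App-KI mice, those of mt-Nd3 -0.34 and 0.027, and those of mt-Nd4l 0.20 and 0.35, none of them called. Without these 5 genes the mitochondrial median was 0.015 in Trem2-KO and -0.097 in App-KI mice.

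**Figure D3:**
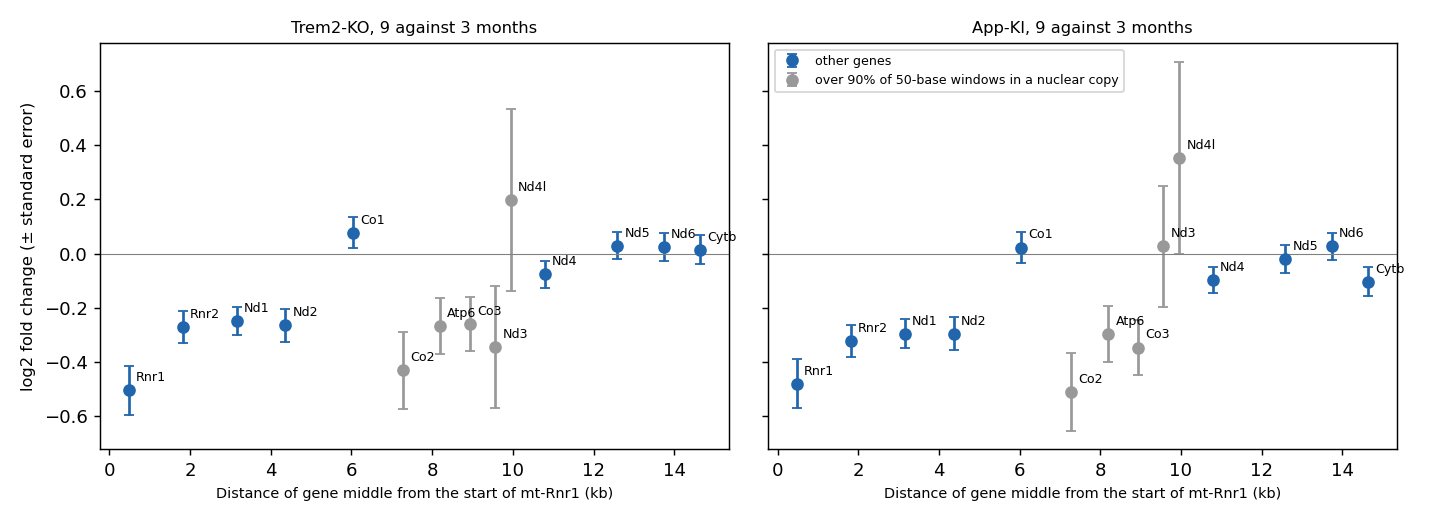
Log2 fold change at 9 against 3 months (± standard error) along the mitochondrial genome, as the distance of each gene's middle from the start of mt-Rnr1, in Trem2-KO (left) and App-KI mice (right); grey marks genes with over 90% of their 50-base windows in a nuclear copy. The ribosomal RNAs mt-Rnr1 and mt-Rnr2 were not assessed for shared windows and are drawn like the genes not marked grey. The first 4 genes lie at -0.25 or below in both genotypes, and mt-Co1 and the genes from mt-Nd4 on lie between -0.10 and 0.08. Among the grey genes between these, mt-Co2, mt-Atp6 and mt-Co3 also lie below -0.25 in both genotypes, while mt-Nd3 and mt-Nd4l do not.

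Summed over members, the nuclear share of the libraries was lower at 9 months, while the mitochondrial sums overlapped between ages in Trem2-KO mice and not in App-KI mice. Nuclear members summed to 9915, 8919 and 9119 CPM in Trem2-KO mice at 9 months, against 10106, 10564 and 10669.7 CPM at 3 months. In App-KI mice the sums were 8963, 8651 and 8951 CPM at 9 months, against 10056, 10142 and 10089 CPM at 3 months. The highest 9-month library, Trem2-KO replicate 1, lay just under the lowest 3-month one. Mitochondrially encoded members summed to 10118, 9743 and 10498 CPM at 9 months and 10009.6, 10191 and 10822 CPM at 3 months in Trem2-KO mice. The App-KI sums were 9477, 10376 and 9840.4 CPM at 9 months and 10419, 10790.0 and 10416 CPM at 3 months, so every 9-month App-KI library was below those of 3 months. The log2 ratio of mitochondrial to nuclear sums was 0.029, 0.13 and 0.20 in the 9-month Trem2-KO libraries, against -0.014, -0.052 and 0.02 in the 3-month ones, and 0.081, 0.26 and 0.14 in the 9-month App-KI libraries, against 0.051, 0.089 and 0.046 in the 3-month ones. All Trem2-KO values at 9 months were above those at 3 months, and in App-KI mice the lowest 9-month value lay within the 3-month range. No test was made on these sums, since they add up members chosen with earlier results known.

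**Figure D4:**
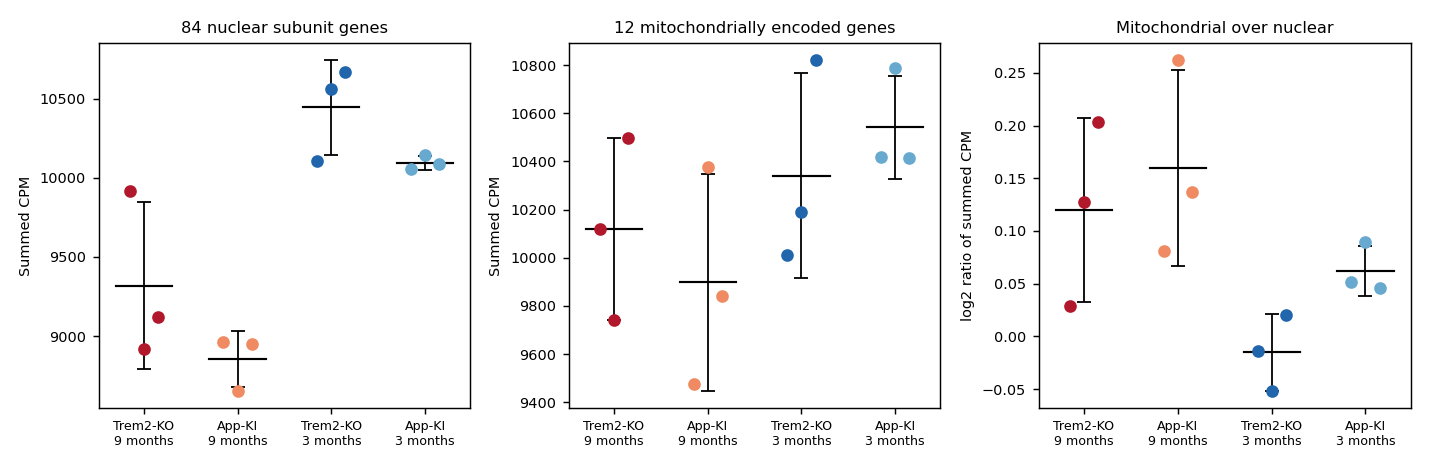
Summed CPM of the 84 nuclear members (left) and the 12 mitochondrially encoded members (middle) and the log2 ratio of mitochondrial over nuclear sum (right), per library (points) with group mean and SD (n = 3); axes do not start at 0. The nuclear sums are at or below 9915 CPM at 9 months and at or above 10056 CPM at 3 months.

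Few members were called between Trem2-KO and App-KI mice. At 3 months none of the 96 passed edgeR's test, with 4 higher and 2 lower at an unadjusted p under 0.05 and 1 called by DESeq2; over all genes 0.167% were called higher and 0.423% lower, and 5.21% were higher and 6.02% lower at an unadjusted p under 0.05. At 9 months 1 was called higher and 1 lower, against 0.684% and 1.39% of all genes, and 11 were higher and 1 lower at an unadjusted p under 0.05, against 7.02% and 6.63% of all genes. Averaged over both ages 2 were called higher and 1 lower, against 1.6% and 2.54% of all genes, and 17 were higher and 1 lower at an unadjusted p under 0.05, against 8.71% and 9.31% of all genes. The nuclear and mitochondrial medians of the log2 fold change at 3 months were 0.042 and 0.011, and those at 9 months 0.070 and 0.055.

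Ndufb2, a small accessory subunit in the membrane arm of complex I, had 28.8, 27.2 and 27.0 CPM in Trem2-KO and 33.9, 31.6 and 37.7 CPM in App-KI mice at 9 months (-0.31 ± 0.08, adjusted p = 0.0441 by edgeR). At 3 months it had 27.0, 29.5 and 25.5 CPM in Trem2-KO and 32.2, 35.3 and 33.5 CPM in App-KI mice (-0.30 ± 0.08, adjusted p = 0.1). At each age all 3 Trem2-KO libraries lay under the lowest App-KI one. The average over ages was -0.31 ± 0.06, adjusted p = 0.00292 by edgeR, a call that no single left-out library ended. With the fibroblast covariate, which nearly marks the 9-month Trem2-KO group, the fold change was -0.27 and the call was lost (adjusted p = 0.222 by edgeR). Over all 19 alternatives the averaged fold change ran from -0.34 to -0.27. The 9-month call was lost in 9 of the 12 omissions of a library. Ndufb2 barely moved with age (0.017 in Trem2-KO and 0.031 in App-KI mice).

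Cox6b2, an isoform known mainly from testis, rose in Trem2-KO mice at 9 months with 3.22, 2.49 and 2.23 CPM, against 1.32, 0.965 and 1.38 CPM in App-KI mice (1.12 ± 0.28, adjusted p = 0.037 by edgeR). At 3 months the values were 1.44, 1.58 and 1.30 CPM in Trem2-KO and 1.35, 1.998 and 0.878 CPM in App-KI mice, which overlapped. It was also the 1 member that rose with age in Trem2-KO mice (0.88 ± 0.27, adjusted p = 0.0471). No member was called at 9 months with the fibroblast score as a covariate, where Cox6b2 stood at 0.78. Because that score nearly marks the 9-month Trem2-KO group, this fit can hardly separate the 2. Over all 20 alternatives the 9-month genotype value of Cox6b2 ran from 0.78 to 1.23. The genotype call of Cox6b2 was lost in 6 of the 12 omissions of a library, those of each 9-month App-KI library, of the 9-month Trem2-KO replicates 1 and 2 and of the 3-month Trem2-KO replicate 3. Sdhb (0.17 ± 0.05, adjusted p = 0.0434) and Uqcrc2 (0.12 ± 0.03, adjusted p = 0.0334) rose in Trem2-KO mice on average over both ages. Uqcrc2 had 195, 202 and 199.9 CPM in Trem2-KO and 173, 181 and 179 CPM in App-KI mice at 3 months, with no overlap, and 183, 187 and 177 CPM in Trem2-KO and 179, 168 and 170.3 CPM in App-KI mice at 9 months, with overlap. The calls of Sdhb and Uqcrc2 were lost in 10 and 9 of the 12 omissions.

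Several subunits exist as paralogous isoforms, and in several of these sets 1 form was far above the other. Cox4i2, the form linked to low oxygen, had 0.927, 0.863 and 0.902 CPM in Trem2-KO and 0.633, 0.804 and 1.18 CPM in App-KI mice at 9 months, where Cox4i1 had 186 to 312 CPM; the proteins share 48.6% of aligned residues. The muscle form Cox6a2 had 1.15, 0.671 and 0.902 CPM at 9 months and 1.51, 2.11 and 1.98 CPM at 3 months in Trem2-KO mice (-1.04 ± 0.28, adjusted p = 0.0251 by edgeR), a fall near the low end of the counts. Ndufa4l2, a low-oxygen paralogue of Ndufa4 with 58.6% identity, had 1.95, 1.61 and 0.656 CPM at 9 months and 3.47, 2.06 and 3.32 CPM at 3 months in App-KI mice (-1.05 ± 0.31, adjusted p = 0.046), without overlap. Ndufa4 itself had -0.37 in Trem2-KO and -0.38 in App-KI mice and was not called. Muscle-type Cox7a1 and testis-type Cox7b2 stayed at or under 0.804 CPM in every library, and no log2 fold change of theirs passed a test; that of Cox7b2 with age in Trem2-KO mice was 0.71. The 3 genes for the rotor ring of ATP synthase encode similar precursors (69.2% to 75.2% identity) and had log2 fold changes of -0.33 (Atp5g1), -0.39 (Atp5g2) and -0.39 (Atp5g3) in Trem2-KO and -0.36, -0.54 and -0.63 in App-KI mice, with Atp5g2 alone called.

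Many members have short transcripts, and among protein-coding genes outside the chain the age change differed with transcript length. The length is that of the annotated transcript with the longest coding sequence, and of the longest such transcript where several tied. Which transcript is expressed in these samples was not assessed. Among the 84 nuclear members themselves, log2 fold change and log2 transcript length had low correlations. Pearson's r was 0.084 in Trem2-KO and 0.155 in App-KI mice and Spearman's rho was 0.228 and 0.103, as descriptions over genes that share libraries. The members' medians by length, given next, were still lower for shorter transcripts in both genotypes. Nuclear members under 1 kb, 51 genes, had a median log2 fold change of -0.34 in Trem2-KO and -0.30 in App-KI mice, and 29.4% were called lower in each. The 819 other protein-coding genes of that length had medians of -0.17 and -0.27, with 11.6% and 19.0% called lower. At 1 to 2 kb the 25 members had medians of -0.17 and -0.18 and the 3087 other genes -0.020 and -0.023, with 28.0% and 40.0% of members and 4.76% and 4.86% of other genes called lower. At 2 kb or more the 8 members had medians of -0.067 and -0.083 and the 10868 other genes 0.030 and 0.017. Some of these 8 have short coding sequences on a long annotated transcript, such as Ndufb2 (315 of 4371 bases) and Atp5g1 (408 of 4715 bases). Short genes at large were lower at 9 months too, and members of 1 to 2 kb lay below other genes of their length; the part of length in the members' change was not tested.

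**Figure D5:**
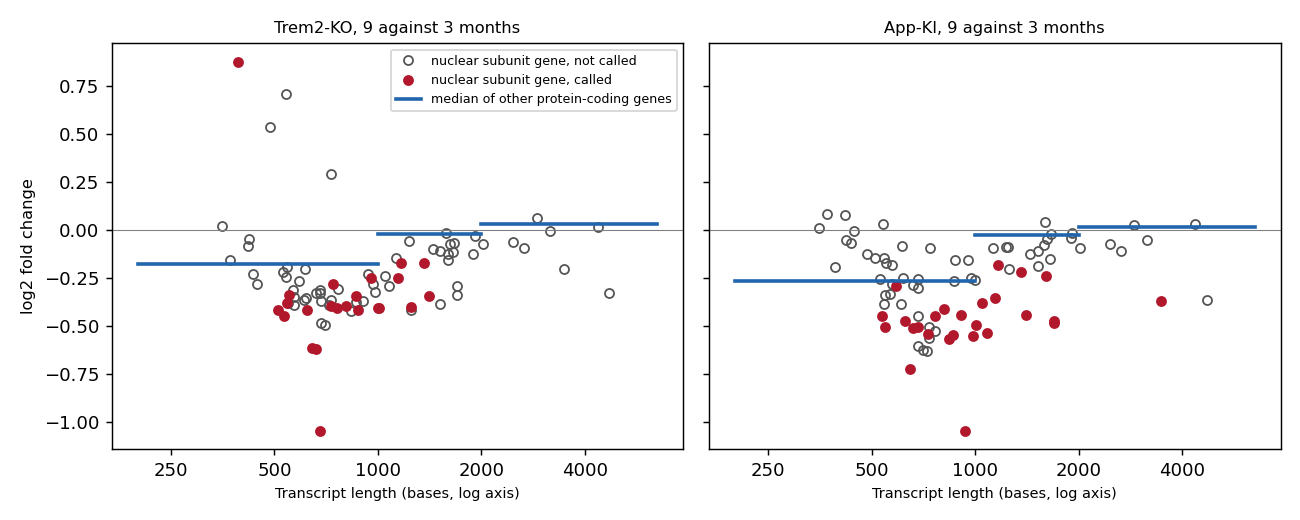
Log2 fold change at 9 against 3 months of the 84 nuclear members by transcript length (log axis), in Trem2-KO (left) and App-KI mice (right), with the median of other protein-coding genes under 1 kb, of 1 to 2 kb and of 2 kb or more as blue lines. Filled circles passed edgeR's test; the lowest values lie among transcripts under 1 kb, where the blue line is also below 0.

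Related gene groups moved to differing extents with age. Over all genes tested, 3.02% were called lower and 5.68% higher in Trem2-KO mice, and 2.71% lower and 3.95% higher in App-KI mice. Over the 279 genes of the lists below, mitochondrial ribosomal RNAs included, 8.6% were called lower in Trem2-KO and 16.1% in App-KI mice. In each genotype 0.358% were called higher. Of 50 tested assembly factors, 4 fell in Trem2-KO and 6 in App-KI mice, none rose, and the medians were -0.095 and -0.096. Ndufaf3 (-0.31 and -0.40), Sdhaf4 (-0.62 and -0.66) and Uqcc3 (-0.47 and -0.63), which help build complexes I, II and III, were called in both genotypes. Mitochondrial ribosomal proteins, 77 genes, had 4 falls in Trem2-KO and 21 in App-KI mice (medians -0.17 and -0.21), with Mrpl27 and Mrps12 called in both. A list of 83 genes with Rpl or Rps symbols, mostly cytosolic ribosomal proteins, had 12 and 16 falls (medians -0.27 and -0.25), among them Rpl28 and Rpl29 in both. It includes Rps19bp1, which encodes a binding partner of a ribosomal protein and fell in both. None of 20 genes for transcription and maintenance of mitochondrial DNA, of 17 for mitochondrial RNA processing or of 11 nuclear regulators of respiration was called with age in either genotype by edgeR. At an unadjusted p under 0.05 these lists had 1, 0 and 2 genes in Trem2-KO mice and 2, 2 and 0 in App-KI mice. DESeq2 called 0 of them in Trem2-KO mice and 1 in App-KI mice, an RNA processing gene that was lower. In the TCA cycle, 19 genes, Suclg2 rose in both (0.34 and 0.36), and Pdhb (-0.16) and Dlat (-0.19), subunits of pyruvate dehydrogenase, fell in Trem2-KO mice. Averaged over ages, the genotype comparison called Gabpa (-0.20), which encodes a subunit of an ETS factor that regulates respiratory genes, and mt-Rnr1 (-0.25) lower, and Mdh2 (0.13), Mrps26 (0.20) and Mrps15 (0.21) higher in Trem2-KO mice. These 3 higher and 2 lower calls are 1.08% and 0.717% of the 279 genes on these lists, below the shares called over all genes (1.6% and 2.54%).

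Cell type markers also moved with age. The 10 microglial markers summed to 672 to 710 CPM in Trem2-KO and 1146 to 1233 CPM in App-KI mice at 9 months, and to 446 to 461 CPM in Trem2-KO and 478 to 496 CPM in App-KI mice at 3 months; 9 and 10 of 10 were called higher with age. Astrocyte markers, 8 genes, summed to 5182 to 5615 CPM in Trem2-KO and 5919 to 6325 CPM in App-KI mice at 9 months, and to 3920 to 4038 CPM in Trem2-KO and 4121 to 4335 CPM in App-KI mice at 3 months; 4 of 8 were called higher with age in Trem2-KO and 3 of 8 in App-KI mice. Neuronal markers summed to 9686 to 10808 CPM in Trem2-KO and 10174 to 10786 CPM in App-KI mice at 9 months, and to 11112 to 11126 CPM in Trem2-KO and 10589 to 11150 CPM in App-KI mice at 3 months; 11 of 12 had negative values in each genotype (medians -0.12 and -0.075), and 3 and 1 were called lower. Of the 11 hippocampal neuron markers 4 were called lower in Trem2-KO and 3 in App-KI mice (medians -0.067 and -0.11). Oligodendrocyte markers, 8 genes, summed to 6217 to 8163 CPM in Trem2-KO and 7138 to 7960.0 CPM in App-KI mice at 9 months, and to 8165 to 8637 CPM in Trem2-KO and 6838 to 10041 CPM in App-KI mice at 3 months. Of these 8, 7 had negative values in each genotype, with medians of -0.35 in Trem2-KO and -0.21 in App-KI mice, and 2 and 0 were called lower (4 and 2 lower at an unadjusted p under 0.05; DESeq2 called 2 lower in App-KI mice). Among 6 endothelial markers 3 were called higher in Trem2-KO mice and 0 in App-KI mice, where none had an unadjusted p under 0.05 and DESeq2 called 0. Their part in the members' change was not tested.

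Promoters were available for 68 of the 84 nuclear members, as RefSeq windows of 300 bases (250 before to 50 after the gene start, GRCm38.p6). The 8-letter core CGCATGCG, bound by NRF1, a nuclear regulator of respiratory genes, occurred on either strand in 9 of the 68 (13.2%), against 2.1% of the 27025 genes with a window. Those 27025 genes were not limited to expressed ones, so these shares do not compare like genes. The half-site TGCGCA, which can overlap that core, occurred in 26.5% against 8.8%, and the ETS core CCGGAAG in 23.5% against 9.9%. Among the 12 with a window that were called lower with age in both genotypes, 3, 2 and 5 held these motifs, and among the 37 called lower in neither, 5, 9 and 9 did. Below are 5 stretches of 56 bases around the NRF1 core (capitals), the first 3 from genes that fell in both genotypes and the others from genes called lower in neither, shown because the same letters stand before genes that were called and genes that were not.
Ndufa11 (chr17:56717679-56717734, plus strand): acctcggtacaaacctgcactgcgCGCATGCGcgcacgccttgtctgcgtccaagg
Atp5g2 (chr15:102671057-102671112, minus strand): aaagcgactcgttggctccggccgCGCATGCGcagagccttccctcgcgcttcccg
Atp5j (chr16:84835092-84835147, minus strand): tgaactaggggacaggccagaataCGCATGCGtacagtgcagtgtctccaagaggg
Cox6a1 (chr5:115349088-115349143, minus strand): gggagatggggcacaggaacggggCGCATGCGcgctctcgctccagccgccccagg
Atp5k (chr5:108434417-108434472, minus strand): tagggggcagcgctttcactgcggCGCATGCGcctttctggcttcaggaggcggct
The core begins 41 to 161 bases before the gene start in these 5. Cox6a1 had log2 fold changes of -0.39 in Trem2-KO and -0.28 in App-KI mice, and Atp5k had -0.16 and 0.084. A match describes the letters of the window and is no measure of binding.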

How the data were processed

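Hippocampal RNA of 12 mice was sequenced, and the authors deposited 1 table of raw counts per gene. Reads were aligned with STAR 2.7.10a and counted with featureCounts 2.0.3, with R 4.2.0 and DESeq2 1.36.0 also listed and GRCm39 as the build, per the submitters' processing notes. For the annotation release, the strand setting and multi-mapped reads, nothing is stated in those notes or the labels; genes that share sequence or overlap are uncertain.

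Gene identifiers were matched to GENCODE M21 (GRCm38) for symbols, biotypes and lengths (52125 of 56980). Genes passing filterByExpr (minimum count 10, minimum total 15; 19152 genes) were fitted over all 4 groups with edgeR 4.0.16 (TMM, robust quasi-likelihood F-test, 8 residual degrees of freedom, R 4.3.3), with Benjamini-Hochberg adjustment over all of them. Values after ± are standard errors for log2 fold changes and SD for levels. A second tool was DESeq2 1.42.0. The scripts were tested on simulated data. Nothing states that libraries came from separate experiments beyond separate mouse identifiers, so p-values measure the spread between these libraries.

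Members and lists were chosen with earlier results of these data known. Named were all mitochondrially encoded members, nuclear members called in a comparison, the 3 with the highest level per length in each complex, the extremes of each comparison, isoform sets, and called genes of related lists. Subunits named beside these for their role were chosen after their values were seen. Alternatives were other size factors, DESeq2, no filter, fewer groups, marker scores as covariates, other sums and leaving out each library.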

Additional observations from a re-analysis of the deposited data

How the results depend on the processing

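The direction of the nuclear and mitochondrial medians with age held under every alternative run except that the mitochondrial median in Trem2-KO mice was 0.0147 without the genes that have near-identical nuclear copies. Counts of called members moved more. DESeq2 called 1 member for genotype at 3 months, 5 averaged over ages and 44 with age in Trem2-KO mice. Without a filter 6 were called for genotype at 9 months and 51 with age in Trem2-KO mice, and with only the 2 groups compared 1 and 13. The choroid plexus covariate gave 1 at 3 months and 1 averaged over ages. The fibroblast covariate gave 0 at 9 months, 0 averaged over ages and 0 with age in Trem2-KO mice, with a nuclear median of -0.3911 there, of -0.0611 (mitochondrial -0.0284) for genotype at 9 months and of -0.0877 (mitochondrial -0.084) for the interaction. That score was higher in every 9-month Trem2-KO library than in any other library. The fit can hardly separate it from that group, so nothing is concluded from these lost calls. Without the 3 libraries lowest in choroid plexus markers, chosen after seeing the data, the counts were 0 at 9 months, 1 averaged over ages and 10 with age in App-KI mice. As a mean of log2 values the ratio for genotype at 3 months was -0.0026. Leaving out each library gave 16 to 42 calls with age in App-KI mice, 8 to 51 in Trem2-KO mice, 0 to 3 for genotype at 9 months and 1 to 5 averaged. Nuclear medians then ran from -0.2766 to -0.2014 (age, App-KI), -0.3734 to -0.1980 (age, Trem2-KO), 0.0079 to 0.0828 (genotype, 3 months), -0.0372 to 0.0933 (9 months), -0.0077 to 0.0796 (average) and -0.0422 to 0.0624 (interaction). Mitochondrial medians ran, in the same order, from -0.1352 to -0.0830, -0.1802 to -0.0991, -0.0115 to 0.0226, 0.0046 to 0.0940, 0.0032 to 0.0449 and -0.0064 to 0.0894. The log2 ratios ran from 0.0465 to 0.1373, 0.0935 to 0.1805, -0.0950 to -0.0589, -0.0814 to 0.0113, -0.0794 to -0.0330 and -0.0041 to 0.0886. No paired analysis was possible because the labels give no replicate numbers shared between groups. Isoforms near 1 CPM rest on few counts.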
